A study of Homo sapiens with 9 samples.

Results

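The genes that code for voltage-gated ion channels and their structural relatives were compared between IMR32 cells carrying the 69-kDa or the 82-kDa form of choline acetyltransferase (ChAT) and arrays labelled wild type. Genes were taken by symbol: those whose symbols start with KCN, CACNA, CACNB or CACNG, and the numbered SCN and HCN genes (sodium channel alpha and beta subunits and pacemaker channels). The rule found 99 genes among 11963 genes with a probe set assigned to a single symbol, and 145 of 19065 such probe sets. Each gene was followed by its brightest probe set, the one with the highest mean log2 intensity over all 9 arrays. By ion there were 63 potassium, 21 calcium, 11 sodium and 2 mixed-cation (HCN) channel genes. The symbol rule also took in 2 non-coding RNAs of the KCNQ1 locus, KCNQ1DN and KCNQ1OT1, which are not channel subunits. It took in the inward rectifiers, the two-pore-domain leak channels and the calcium-activated potassium channels as well, most of which are not opened by voltage.

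IMR32 is a human neuroblastoma cell line, and ChAT is the enzyme that makes acetylcholine. The 69CHAT group was IMR32 stably expressing the 69-kDa form, the 82CHAT group IMR32 stably expressing the 82-kDa form, and the WT group cells labelled as unmodified IMR32, with 3 arrays each that the submitters call biological replicates. The labels name neither the promoter that drives each ChAT form nor whether a line is 1 clone or a pool. Each form was measured in 1 line, so the form and the line cannot be told apart.

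Voltage-gated channels open when the membrane potential changes. Sodium channels drive the upstroke of the action potential, potassium channels repolarise the cell and hold it at rest, and calcium channels couple electrical activity to transmitter release and to gene expression. Most are built from a pore-forming alpha subunit and smaller auxiliary subunits that set its gating and its transport to the membrane. Neuroblastoma cells come from the sympathetic lineage and are known to carry currents of all these kinds.

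The arrays labelled WT stood apart from both lines, which bears on every difference from WT given here. Over all probe sets, log2 values of WT arrays correlated with those of the lines at 0.913 to 0.933, against 0.976 to 0.994 between the lines. IMR32 carries an amplified MYCN gene, but the dimmest MYCN probe set read 38.03, 38 and 39.61 on the WT arrays and 1035 to 1276 on the arrays of the lines. Neuronal markers were higher in 69CHAT than in WT for 15 of 19 genes and lower for 1, with a summed intensity of 13040 to 14030 on WT arrays, 22910 to 26820 on 69CHAT arrays and 22720 to 27810 on 82CHAT arrays. In 82CHAT 14 were higher and 1 lower. Sympathoadrenal markers were higher for 10 of 15 genes in each line, with sums of 1976 to 2135 in WT, 6906 to 11400 in 69CHAT and 8573 to 11820 in 82CHAT. Epithelial markers were lower for 9 of 16 genes in each line, with sums of 7303 to 8166 in WT, 1040 to 1117 in 69CHAT and 1006 to 1176 in 82CHAT. Of 16 mesenchymal markers, 3 were higher and 6 lower in 69CHAT, and 3 higher and 7 lower in 82CHAT, with sums of 18280 to 20530, 11660 to 16800 and 13050 to 13860 in WT, 69CHAT and 82CHAT. Glial and Schwann markers (1 of 6 lower in each line, sums of 331.7 to 481.6 over all arrays) and muscle and heart markers (0 of 11 past the threshold with limma in either line, sums of 820.3 to 1074) had few or no calls. Over all genes, 11.7% were higher and 17.7% lower in 69CHAT, and 11.8% and 18.5% in 82CHAT, at the threshold used for these counts. No marker was at 0, since the lowest intensity in the table was 14.9. The part of these differences in the channel results was not tested, and the arrays are called WT here only because they are so labelled. Replicate 1 stood apart from replicates 2 and 3 in every group: it correlated with them at 0.98 and 0.976 in 69CHAT, 0.978 and 0.975 in 82CHAT, and 0.99 and 0.991 in WT, against 0.998, 0.997 and 0.995 between replicates 2 and 3. CHAT itself, read by 1 probe set, was 6.11-fold higher in 82CHAT than in WT (adjusted p = 0.00057) and 1.56-fold in 69CHAT (adjusted p = 0.226).

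More channel genes were higher in the lines than lower. A gene was counted as higher or lower when its adjusted p was under 0.05 in limma, Benjamini-Hochberg adjusted over 22215 probe sets. In 69CHAT against WT, 16 of 99 channel genes (16.2%) were higher, against 11.7% of all genes, and 2 (2.02%) were lower, against 17.7% of all genes. In 82CHAT against WT, 18 (18.2%) were higher, against 11.8% of all genes, and 2 (2.02%) were lower, against 18.5%. The median log2 difference of the channel genes was 0.16 in 69CHAT and 0.16 in 82CHAT, against 0.05 and 0.05 over all genes. A difference above 0 was seen in 86 and 87 of the 99, against 6868 and 6829 of all 11963 genes. Both comparisons use the same 3 WT arrays, so their counts are not independent. Called differences of at least 2-fold numbered 5 higher and 1 lower of the 99 in 69CHAT, against 473 and 786 of all 11963 genes. In 82CHAT they numbered 7 higher and 1 lower, against 463 and 777 of all genes.

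**Figure D1:**
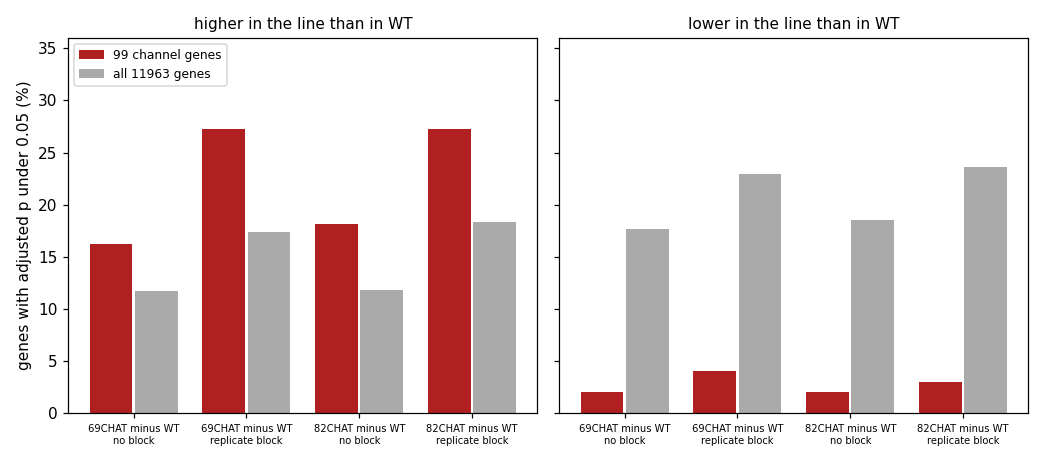
Share of genes, in percent, with adjusted p under 0.05 that were higher (left) or lower (right) in a line than in WT, for the 99 channel genes (red) and all 11963 genes (grey), without and with the replicate number as a block. In each pair of bars on the left the red bar is the taller, and on the right it is the shorter: 2.02% against 17.7% for 69CHAT without the block.

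Same-numbered arrays of different groups deviated together, so the fit with the replicate number as a block is given beside these counts. Whether arrays with different numbers deviated together as well was not tested. With that replicate block, 27 channel genes were higher and 4 lower in 69CHAT (17.4% and 22.9% of all genes), and 27 were higher and 3 lower in 82CHAT (18.3% and 23.6% of all genes). No call was lost with the block. The genes it added in 69CHAT were CACNA2D1, CACNB1, CACNB2, KCNMB1, KCNN1, KCNN4, KCNK10, KCNA4, KCNH4, SCN8A and SCN10A, all higher, and CACNA2D2 and CACNA2D3, both lower. In 82CHAT it added CACNA1H, CACNB2, KCNN1, KCNN4, KCNJ15, KCNK10, KCNA4, KCNH4 and SCN10A, all higher, and CACNA2D2, lower. Of the 18 genes called in 69CHAT, 8 stayed past the threshold whichever single array was left out, and of the 20 called in 82CHAT, 13 did. The number higher in 69CHAT also rested on single arrays: it was 9 without WT replicate 1, 10 without WT replicate 3 and 10 without 69CHAT replicate 2. It ranged up to 22 without 82CHAT replicate 1. In 82CHAT it was 12 without 82CHAT replicate 1 and 12 without WT replicate 3.

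Many channel genes gave low readings. The lower quartile of all probe sets on the dimmest array was 55.9, and 16 of the 99 genes (16.2%, against 12% of all genes) lay below it on all 9 arrays, among them 4 sodium channel alpha subunits, SCN1A, SCN7A, SCN9A and SCN11A. A further 61 genes lay above it on all 9, against 9298 of all 11963 genes. The median of the mean log2 intensities was 6.32 for the channel genes and 7.53 for all genes. The part of this dimness in the small share of channel genes called lower was not tested. A probe set's intensity depends on its probes, so these values describe probe sets and give no order of expression between genes. The brightness of a probe set served only to choose which genes to follow and name.

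**Figure D2:**
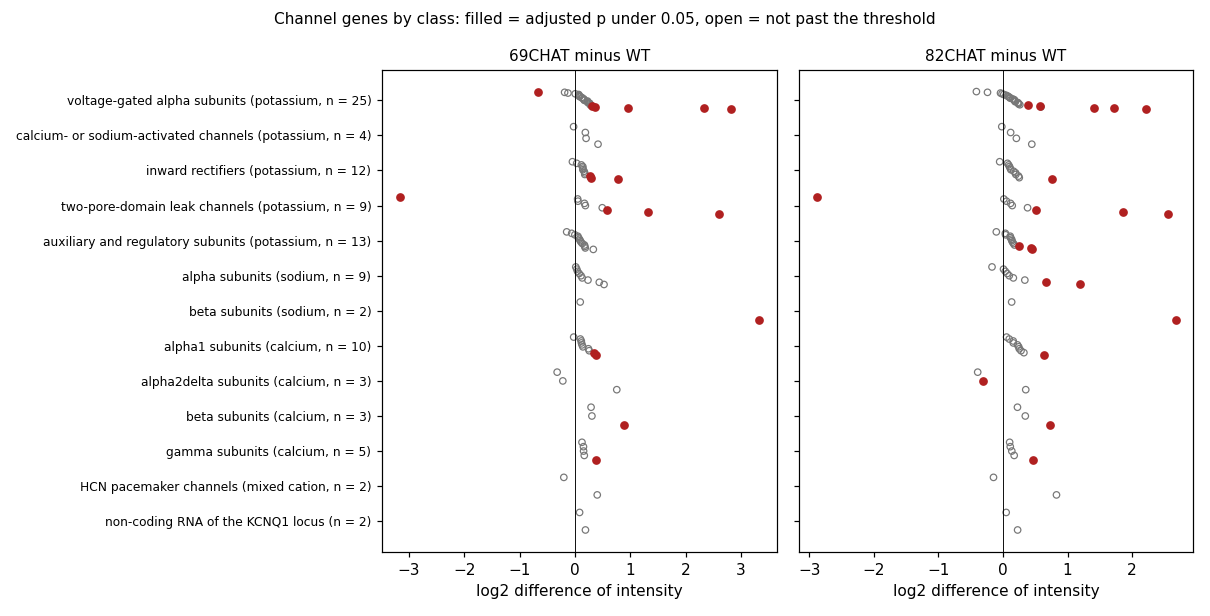
Log2 difference of intensity from WT for each of the 99 genes in 69CHAT (left) and 82CHAT (right), 1 row per ion and role class with the number of genes in brackets. Filled points had an adjusted p under 0.05. Most points lie just above 0, with SCN3B at 3.32 and KCNK1 at -3.16 the farthest out in 69CHAT.

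Among the 25 voltage-gated potassium channel alpha subunits, 5 were higher and 1 lower in 69CHAT, and 5 were higher and 0 lower in 82CHAT. Counts by class, here and below, stand beside 11.7% higher and 17.7% lower over all genes in 69CHAT, and 11.8% and 18.5% in 82CHAT. The genes with the largest differences were KCNG1, KCNH2 and KCNB2. KCNG1 codes for a subunit that forms no channel alone and joins KCNB subunits, whose gating it alters. Its intensities were 72.8, 83.1 and 74.0 on the WT arrays, 347.3, 726.4 and 613.3 on the 69CHAT arrays, and 396, 318.5 and 355.4 on the 82CHAT arrays. Every array of the lines was above every WT array, and 69CHAT replicate 1 was the lowest of its group. KCNG1 was thus 7.02-fold higher in 69CHAT (log2 2.81, SE 0.24, adjusted p = 4.78e-05, limma) and 4.64-fold higher in 82CHAT (log2 2.22, SE 0.24, adjusted p = 0.00019). These sizes belong to the brighter of its 2 probe sets. Over 20 alternative analyses, some with other choices of probe set, the log2 difference ran from 1.97 to 3.13 in 69CHAT and 1.55 to 2.29 in 82CHAT. In these bulk RNA samples a different share of cells with a transcript and a different amount per cell cannot be told apart. The largest called differences were named only where the line and WT did not overlap, so that trait is no separate support for them. Groups did not overlap for 41 of 99 channel genes and 5649 of 11963 genes in 69CHAT against WT. The numbers were 40 and 5468 in 82CHAT against WT, and 11 and 822 between the lines.

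KCNH2, which codes for the hERG subunit whose current helps set the resting potential of neuroblastoma cells, read 219.8, 275.1 and 139.9 in WT, 1061, 1016 and 994.6 in 69CHAT, and 808.4, 587.4 and 643.7 in 82CHAT. The 3 groups did not overlap, with 69CHAT highest and WT lowest. The gene was 5.02-fold higher in 69CHAT (log2 2.33, SE 0.23, adjusted p = 0.000103) and 3.31-fold higher in 82CHAT (log2 1.73, SE 0.23, adjusted p = 0.000581). KCNH2 also has 2 probe sets, and over the 20 alternatives its log2 difference ran from 1.44 to 2.55 in 69CHAT and 1.02 to 1.94 in 82CHAT. KCNB2, a delayed-rectifier subunit and partner of the KCNG subunits, read 108.9, 141.8 and 151.7 in WT, 245.2, 264.3 and 268.6 in 69CHAT, and 286.5, 381.9 and 394 in 82CHAT. Its 3 groups did not overlap either, in the order WT, 69CHAT, 82CHAT. KCNB2 was 1.95-fold higher in 69CHAT (adjusted p = 0.00185) and 2.64-fold higher in 82CHAT (adjusted p = 0.000226). With 2 probe sets as well, its log2 difference ran from 0.82 to 1.55 in 69CHAT and 1.26 to 2.11 in 82CHAT over the 20 alternatives. The sizes of these 3 genes' differences, and their order, therefore depend on the analysis and the probe set.

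KCNC1, a fast-gating subunit of rapidly firing neurons, was 1.29-fold higher in 69CHAT (adjusted p = 0.0214) and 1.48-fold higher in 82CHAT (adjusted p = 0.00246), with intensities of 85.6 to 97.3 in WT, 117.1 to 124.7 in 69CHAT and 127.8 to 154.6 in 82CHAT. The 69CHAT call was lost without any 1 of the 3 69CHAT replicates and without WT replicate 1 (adjusted p up to 0.0719). KCNS3, another subunit that forms no channel alone, was the only alpha subunit below WT past the threshold. It read 171.8, 218.9 and 179.8 in WT, 155.9, 112.8 and 97.0 in 69CHAT, and 183.8, 127 and 122.8 in 82CHAT. Replicate 1 of each line lay near the WT arrays, while replicates 2 and 3 lay below them. KCNS3 was 1.58-fold lower in 69CHAT (adjusted p = 0.0482), a call lost in 8 of 20 alternatives, among them without WT replicate 1, 2 or 3 and without 69CHAT or 82CHAT replicate 2 or 3 (adjusted p up to 0.157). In 82CHAT its adjusted p was 0.196. Beyond the rule for named genes, and chosen after their values were seen, KCNA5 was 1.23-fold higher in 69CHAT (adjusted p = 0.0489) and KCNG2 was 1.31-fold higher in 82CHAT (adjusted p = 0.0336). The KCNA5 call was lost without any 1 array except 82CHAT replicate 1 (adjusted p up to 0.155), and the KCNG2 call without any 1 of the 3 82CHAT replicates, 69CHAT replicate 3 or WT replicate 1 or 3 (adjusted p up to 0.106). The remaining alpha subunits, including the KCNQ, KCND and most KCNA genes, did not pass the threshold in either comparison without the block. With the replicate block KCNA4 passed in both lines (adjusted p = 0.0125 in 69CHAT and 0.0244 in 82CHAT), as did KCNH4 (adjusted p = 0.0218 and 0.0129).

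**Figure D3:**
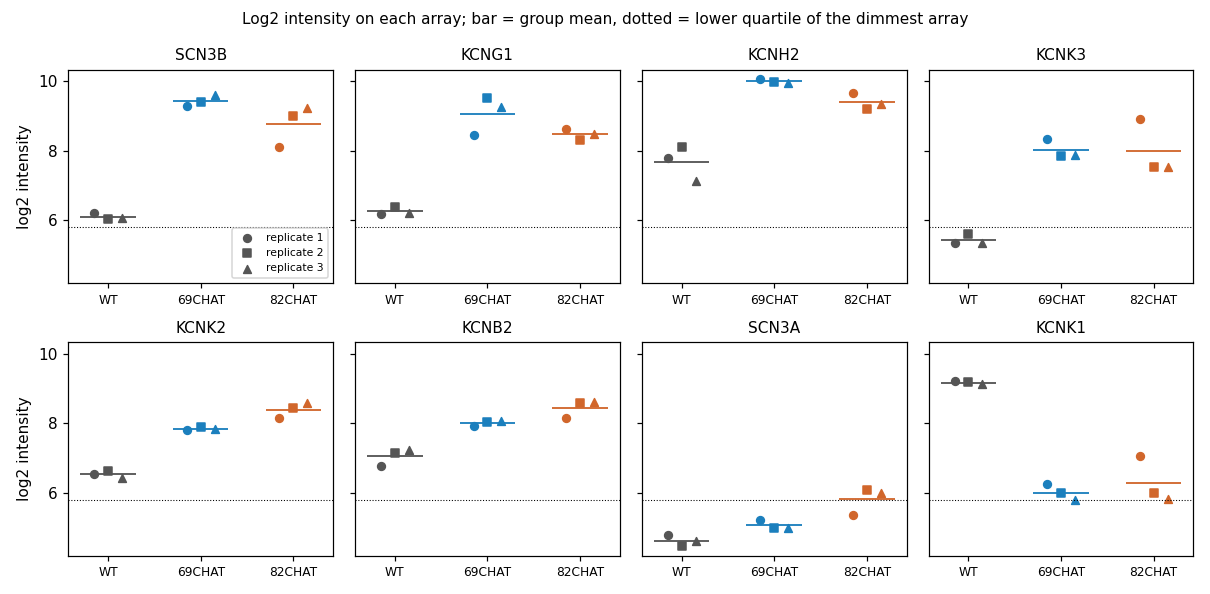
Log2 intensity of 8 channel genes on each of the 9 arrays, with symbols for the replicate number, bars for group means and a dotted line at the lower quartile of the dimmest array (intensity 55.9). SCN3B, KCNG1, KCNH2, KCNK3, KCNK2 and KCNB2 sat higher on all 6 arrays of the lines than on the 3 WT arrays, SCN3A likewise but near or below the dotted line, and KCNK1 sat lower.

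The two-pore-domain leak channels, which pass a steady potassium current at rest, moved in both directions. Of 9 genes, 3 were higher and 1 lower in 69CHAT, and likewise 3 and 1 in 82CHAT: KCNK2, KCNK3 and KCNK12 were higher and KCNK1 was lower in each. Promoter sequences of KCNK1, KCNK2 and KCNK3 are printed because these 3 genes of 1 family showed the largest differences in opposite directions. Each is the 300 bases from 250 before to 50 after a transcription start in RefSeq on GRCh38.p14, read 5′ to 3′ on the gene's strand, with capitals marking matches on either strand to GGGCGG, the core of the GC box, CACGTG and CAGCTG, which are E-boxes, and TATAAA. KCNK1 lies at chr1:233613856-233614155 on the plus strand, KCNK2 has starts at chr1:215005292-215005591 and chr1:215082487-215082786 on the plus strand, and KCNK3 lies at chr2:26692472-26692771 on the plus strand.
KCNK1: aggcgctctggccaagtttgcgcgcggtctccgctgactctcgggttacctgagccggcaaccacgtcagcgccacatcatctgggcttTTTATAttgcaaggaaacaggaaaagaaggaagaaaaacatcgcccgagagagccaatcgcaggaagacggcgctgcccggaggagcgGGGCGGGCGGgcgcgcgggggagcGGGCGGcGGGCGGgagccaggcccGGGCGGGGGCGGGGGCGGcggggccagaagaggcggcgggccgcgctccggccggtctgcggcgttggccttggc
KCNK2, upstream start: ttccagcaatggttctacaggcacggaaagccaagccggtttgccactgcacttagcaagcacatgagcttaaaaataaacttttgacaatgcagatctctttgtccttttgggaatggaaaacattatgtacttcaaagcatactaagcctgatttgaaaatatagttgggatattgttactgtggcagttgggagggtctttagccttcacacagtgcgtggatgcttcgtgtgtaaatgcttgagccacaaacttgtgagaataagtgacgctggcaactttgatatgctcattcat
KCNK2, downstream start: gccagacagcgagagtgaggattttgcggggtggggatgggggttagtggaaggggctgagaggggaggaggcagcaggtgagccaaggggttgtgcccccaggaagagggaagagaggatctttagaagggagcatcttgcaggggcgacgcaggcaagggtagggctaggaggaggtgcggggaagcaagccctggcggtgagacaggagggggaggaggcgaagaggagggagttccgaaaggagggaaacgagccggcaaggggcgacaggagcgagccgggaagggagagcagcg
KCNK3: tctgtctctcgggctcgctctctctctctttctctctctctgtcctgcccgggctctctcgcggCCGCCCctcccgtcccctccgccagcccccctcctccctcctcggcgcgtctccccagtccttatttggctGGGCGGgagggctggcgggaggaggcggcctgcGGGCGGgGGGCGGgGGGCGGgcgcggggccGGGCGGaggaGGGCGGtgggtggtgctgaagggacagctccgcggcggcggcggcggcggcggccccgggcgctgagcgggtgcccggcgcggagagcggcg

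The KCNK1 window held 7 matches to GGGCGG and a match to TATAAA on the minus strand whose first base is at position -161 from the start. Some of the GGGCGG matches overlap one another. The KCNK3 window held 7 matches to GGGCGG, and neither KCNK2 window held any of the 4 motifs. GC content was 70.7% in KCNK1, 78.7% in KCNK3, and 42.0% and 64.7% in the KCNK2 windows. Of 35116 promoter windows of this length, 45.0% held GGGCGG, 7.26% CACGTG, 17.9% CAGCTG and 11.5% TATAAA. RefSeq promoters were matched for 76 of the 99 channel genes, and in their 118 windows the shares were 50.8%, 7.63%, 25.4% and 7.63%. The gene that was lower and 1 of the genes that were higher thus carried the same number of GGGCGG matches. These matches describe the letters and are not evidence of binding.

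KCNK1, a weakly conducting leak channel found in many epithelia and in brain, read 596.1, 581.7 and 558.6 in WT, 76.5, 64.0 and 55.2 in 69CHAT, and 133, 63.8 and 56.5 in 82CHAT. Every array of the lines was far below WT and near the lower quartile of 55.9, apart from 82CHAT replicate 1. KCNK1 was 8.95-fold lower in 69CHAT (log2 -3.16, SE 0.29, adjusted p = 6.82e-05) and 7.39-fold lower in 82CHAT (log2 -2.89, SE 0.29, adjusted p = 0.000115). Its other probe set was 3.66-fold lower in 69CHAT and 3.34-fold lower in 82CHAT. The fall of KCNK1 ran beside the epithelial markers given above, and their part in it was not tested.

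KCNK3, an acid-sensitive leak channel, read 40.9, 48.5 and 40.5 in WT, 324.7, 231.3 and 235.8 in 69CHAT, and 477.4, 184.8 and 184.8 in 82CHAT. All WT arrays lay under the lower quartile and all arrays of the lines well above it, with 82CHAT replicate 1 the highest. KCNK3 was 6.04-fold higher in 69CHAT (log2 2.60, SE 0.34, adjusted p = 0.000574) and 5.88-fold higher in 82CHAT (log2 2.56, SE 0.34, adjusted p = 0.000632). KCNK2, a leak channel that opens with membrane stretch and arachidonic acid, read 93.2, 98.8 and 86.8 in WT, 224.8, 237.4 and 231.1 in 69CHAT, and 286.9, 349.1 and 382.3 in 82CHAT. Its 3 groups did not overlap and were tight within WT and 69CHAT. KCNK2 was 2.49-fold higher in 69CHAT (log2 1.32, SE 0.11, adjusted p = 4.55e-05) and 3.63-fold higher in 82CHAT (log2 1.86, SE 0.11, adjusted p = 5.75e-06).

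KCNK12 was 1.49-fold higher in 69CHAT (adjusted p = 0.0197) and 1.43-fold higher in 82CHAT (adjusted p = 0.0325), from intensities of 35.4 to 46.3 in WT that lay under the lower quartile. Without WT replicate 2 or 3 the call was lost in both lines, and without any 1 of the 3 82CHAT replicates it was lost in 82CHAT (adjusted p up to 0.114). The other 5 leak channel genes, KCNK5, KCNK7, KCNK10, KCNK13 and KCNK15, did not pass the threshold. KCNK10, the closest relative of KCNK2, had a log2 difference of 0.49 in 69CHAT (adjusted p = 0.0716) and 0.38 in 82CHAT (adjusted p = 0.153), and passed with the replicate block (adjusted p = 0.00836 and 0.0233).

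Inward rectifiers let potassium in more easily than out and hold the resting potential. Of 12 genes, 3 were higher in 69CHAT and 1 in 82CHAT, with 0 lower in either (limma). KCNJ8, the pore of an ATP-sensitive channel, read 117.7, 115.4 and 122.2 in WT, 256.7, 184 and 174.4 in 69CHAT, and 242, 171.9 and 191.7 in 82CHAT. No array of the lines came down to the WT range, and replicate 1 was the highest in each line. The gene was 1.71-fold higher in 69CHAT (adjusted p = 0.00871) and 1.69-fold higher in 82CHAT (adjusted p = 0.00976). KCNJ5, a G-protein-gated subunit named for the brightest probe set of its class, was 1.199-fold higher in 69CHAT (adjusted p = 0.0453), a call lost in 12 of 19 alternatives, among them without any 1 of the 3 69CHAT replicates, 82CHAT replicate 2 or 3 or WT replicate 1 or 3 (adjusted p up to 0.221). Its other 3 probe sets had log2 differences of 0.04 to 0.13 and did not pass. KCNJ6, another G-protein-gated subunit named after its values were seen, was 1.22-fold higher in 69CHAT (adjusted p = 0.0438) and had an adjusted p of 0.145 in 82CHAT. Its call was lost without any 1 of the 3 69CHAT replicates, 82CHAT replicate 2 or 3 or WT replicate 1 or 2 (adjusted p up to 0.145).

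None of the 4 calcium-activated channel genes (KCNN1, KCNN3, KCNN4 and KCNMA1) passed in limma in either comparison. KCNN1, a small-conductance channel of the afterhyperpolarisation, read 270.5 to 288 in WT, 322.9 to 448.2 in 69CHAT and 322.9 to 494.7 in 82CHAT. Its groups did not overlap with WT, replicate 1 was the highest of each line, and the log2 differences were 0.41 (adjusted p = 0.134) and 0.45 (adjusted p = 0.106). With the replicate block the adjusted p was 0.0471 and 0.0356. KCNN4, an intermediate-conductance channel, also passed with the block, at log2 0.20 and 0.21 (adjusted p = 0.0451 and 0.0381).

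Auxiliary potassium channel subunits alter gating, surface transport or calcium sensitivity. Of 13 genes, 0 passed in 69CHAT (limma) and 3 were higher in 82CHAT. KCNMB4, a subunit of the large-conductance calcium-activated channel that is common in neurons, read 246.4, 244.7 and 242.2 in WT, 253.6, 281.6 and 293.8 in 69CHAT, and 329.6, 341.5 and 323 in 82CHAT. The 3 groups did not overlap, with 82CHAT the highest. The gene was 1.36-fold higher in 82CHAT (log2 0.44, SE 0.08, adjusted p = 0.0029), and its log2 difference was 0.17 in 69CHAT (adjusted p = 0.145). KCNMB1, another subunit of that channel, and KCNIP2, a calcium-binding partner of KCND channels, were named after their values were seen: they were 1.36-fold (adjusted p = 0.0306) and 1.19-fold (adjusted p = 0.0427) higher in 82CHAT. The KCNMB1 call was lost without 82CHAT replicate 1 or 2 or WT replicate 2 or 3 (adjusted p up to 0.107). The KCNIP2 call was kept only without 69CHAT replicate 1 or 82CHAT replicate 3 (adjusted p up to 0.146).

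SCN3B had the largest difference of any channel gene in 69CHAT. It codes for a sodium channel beta subunit, a single-pass membrane protein that alters gating and surface level of the pore. Its intensities were 73.8, 65.5 and 67.5 in WT, 618.5, 671 and 784.5 in 69CHAT, and 276.7, 508.6 and 598.8 in 82CHAT. The groups did not overlap, and 82CHAT replicate 1 was the lowest array of the lines. SCN3B was 9.99-fold higher in 69CHAT (log2 3.32, SE 0.25, adjusted p = 2.4e-05) and 6.37-fold higher in 82CHAT (log2 2.67, SE 0.25, adjusted p = 8.65e-05). Its other probe set was 5.01-fold and 3.33-fold higher. SCN2B, the other beta subunit measured, read 53.7 to 56.6 in WT and 57.5 to 62.8 over the lines and did not pass in either comparison (adjusted p = 0.412 and 0.229).

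Of the 9 sodium channel alpha subunits, 0 passed in 69CHAT (limma) and 2 were higher in 82CHAT. SCN3A, the alpha subunit typical of embryonic neurons, read 27.9, 22.2 and 24.6 in WT, 37.7, 31.7 and 31.7 in 69CHAT, and 41.5, 67.7 and 63.7 in 82CHAT. Only 82CHAT replicates 2 and 3 rose above the lower quartile of 55.9. SCN3A was 2.27-fold higher in 82CHAT (log2 1.19, SE 0.18, adjusted p = 0.0015), and its log2 difference was 0.44 in 69CHAT (adjusted p = 0.127). SCN8A, the alpha subunit of mature axon initial segments, read 51.1 to 56.2 in WT, 64.5 to 101.3 in 69CHAT and 74.8 to 98.5 in 82CHAT. It was 1.58-fold higher in 82CHAT (adjusted p = 0.0231), a call lost without 82CHAT replicate 1 or 2 and without WT replicate 2 or 3 (adjusted p up to 0.0743). In 69CHAT its adjusted p was 0.0614, and 0.00806 with the replicate block. SCN10A, typical of sensory neurons and named for the brightest probe set of its class, had log2 differences of 0.23 and 0.34 (adjusted p = 0.578 and 0.403), and with the replicate block an adjusted p of 0.0415 and 0.00963.

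Of 21 calcium channel genes, 4 were higher and 0 lower in 69CHAT, and 3 were higher and 1 lower in 82CHAT, all by less than 2-fold in the brightest probe sets. Among 10 alpha1 subunits, which form the pore, CACNA1B and CACNA1H passed. CACNA1B, the N-type channel of nerve terminals, read 60.3, 65.4 and 63.1 in WT, 80.6, 81.9 and 76.9 in 69CHAT, and 101.4, 85.9 and 105.5 in 82CHAT. The 3 groups did not overlap, in the order WT, 69CHAT, 82CHAT. It was 1.27-fold higher in 69CHAT (adjusted p = 0.0244, lost in 6 of 18 alternatives, among them without any 1 of the 3 69CHAT replicates and without WT replicate 1 or 3) and 1.55-fold higher in 82CHAT (adjusted p = 0.00109). CACNA1H, a low-voltage-activated channel, was 1.30-fold higher in 69CHAT (adjusted p = 0.0337, lost in 8 of 20 alternatives, among them without WT replicate 1, 2 or 3, without 69CHAT replicate 1 or 2 and without 82CHAT replicate 2) and 1.25-fold in 82CHAT (adjusted p = 0.0598, and 0.0122 with the replicate block). CACNA1G, its relative, had log2 differences of 0.26 and 0.16 (adjusted p = 0.195 and 0.406).

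CACNB3, a cytoplasmic beta subunit that brings the pore to the membrane, read 426.4, 335.9 and 267.4 in WT, 756.3, 596.5 and 540.1 in 69CHAT, and 737, 469.5 and 502 in 82CHAT. No array of the lines came down to the WT range, though WT itself spread widely. The gene was 1.85-fold higher in 69CHAT (adjusted p = 0.0177) and 1.66-fold in 82CHAT (adjusted p = 0.0421). The 69CHAT call was lost without 69CHAT replicate 1 or WT replicate 2 or 3 (adjusted p up to 0.0659). The 82CHAT call was lost in 8 of 20 alternatives, among them without 82CHAT replicate 1 or 3, 69CHAT replicate 2 or 3 and WT replicate 2 or 3 (adjusted p up to 0.142). CACNB3's other probe set spread less in the lines and was 1.72-fold and 1.53-fold higher (adjusted p = 0.00295 and 0.0107).

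CACNG4, followed by the brightest probe set of the 99 and one of the gamma family, some members of which guide glutamate receptors, read 954.2, 1123 and 1033 in WT, 1424, 1299 and 1288 in 69CHAT, and 1520, 1403 and 1357 in 82CHAT. It was 1.29-fold higher in 69CHAT (adjusted p = 0.015, lost without WT replicate 1 and with quantile normalization) and 1.38-fold higher in 82CHAT (adjusted p = 0.00493). Its dimmer probe set gave a larger difference, 2.27-fold and 2.46-fold. The other 4 gamma subunits did not pass.

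Of the 3 alpha2delta subunits, which raise the surface level of calcium channels, CACNA2D3 was 1.24-fold lower in 82CHAT (adjusted p = 0.0214) and had a log2 difference of -0.22 in 69CHAT (adjusted p = 0.0766, and 0.048 with the replicate block). Its intensities, 33.8 to 36.7 in WT and 27.4 to 32.4 in the lines, lay under the lower quartile on every array, and the 82CHAT call was lost without 82CHAT replicate 2 or 3 or WT replicate 2 (adjusted p up to 0.0791). CACNA2D2 read 206.5, 191.8 and 178.9 in WT, 180.3, 149.8 and 133.7 in 69CHAT, and 171.2, 157.4 and 116.2 in 82CHAT. Its log2 differences were -0.32 (adjusted p = 0.196) and -0.39 (adjusted p = 0.116), and both passed with the replicate block (adjusted p = 0.0264 and 0.0121). CACNA2D1 read 138.1, 101.7 and 144.1 in WT, 316.5, 179 and 170.9 in 69CHAT, and 256.6, 142.3 and 115 in 82CHAT. Replicate 1 was the highest array in each line, and the differences did not pass (adjusted p = 0.142 and 0.472), though the one in 69CHAT passed with the replicate block (adjusted p = 0.0288).

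The HCN channels carry a mixed-cation current that opens on hyperpolarisation. HCN2 read 215.5, 165.1 and 157 in WT, 152.6, 161.4 and 148.5 in 69CHAT, and 133, 186.4 and 165.6 in 82CHAT, with all 3 groups overlapping (adjusted p = 0.387 and 0.51). These values are of the brighter of its 2 probe sets. With the mean of both, HCN2 was lower in 69CHAT past the threshold (limma adjusted p = 0.03), and it did not pass in 82CHAT. HCN4, singled out after its values were seen, read 277.9 on 82CHAT replicate 1 and 52.8 to 100.9 on the other 8 arrays, and did not pass (adjusted p = 0.614 and 0.285). KCNH1, a relative of KCNH2 singled out in the same way, read 90.2 on 82CHAT replicate 1 and 35.5 to 49.4 on the other 8. In replicates 2 and 3 only, KCNH1 was higher in 82CHAT by log2 0.26 (adjusted p = 0.0353) and HCN4 was higher in 69CHAT by 0.28 (adjusted p = 0.0238). The other differences from WT of these genes did not pass there: KCNH1 in 69CHAT was at 0.21 (adjusted p = 0.0704) and HCN4 in 82CHAT at 0.19 (adjusted p = 0.0867). The difference of 82CHAT from WT was thus smaller without replicate 1 in both genes, at 0.26 against 0.59 for KCNH1 and 0.19 against 0.83 for HCN4. Neither non-coding RNA of the KCNQ1 locus passed: KCNQ1DN had log2 differences of 0.19 and 0.23 (adjusted p = 0.212 and 0.13).

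Between the lines, 0 of the 99 channel genes were higher and 0 lower in 82CHAT than in 69CHAT at an adjusted p under 0.05 in limma, against 0% and 0% of all genes. At an unadjusted p under 0.05 there were 9 channel genes (9.09%), against 441 of all genes (3.69%): CACNA1B, KCNMB4, KCNK2, KCNH2, KCNG1, KCNB2, SCN3A, SCN9A and SCN3B. Estimates of 82CHAT minus 69CHAT were log2 0.75 (95% interval 0.33 to 1.17) for SCN3A, 0.54 (0.29 to 0.80) for KCNK2 and 0.44 (0.08 to 0.79) for KCNB2. For KCNH2, KCNG1 and SCN3B they were log2 -0.60 (-1.12 to -0.09), -0.60 (-1.14 to -0.05) and -0.65 (-1.22 to -0.08). These genes were picked by their unadjusted p, so their intervals leave out 0 by that choice. None of them passed after adjustment (limma adjusted p = 0.976 for SCN3A and 0.795 for KCNK2). The intervals of KCNK3 (-0.82 to 0.74) and KCNK1 (-0.38 to 0.93) took in 0 and were wide, so these data do not show that the lines were alike in these genes.

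**Figure D4:**
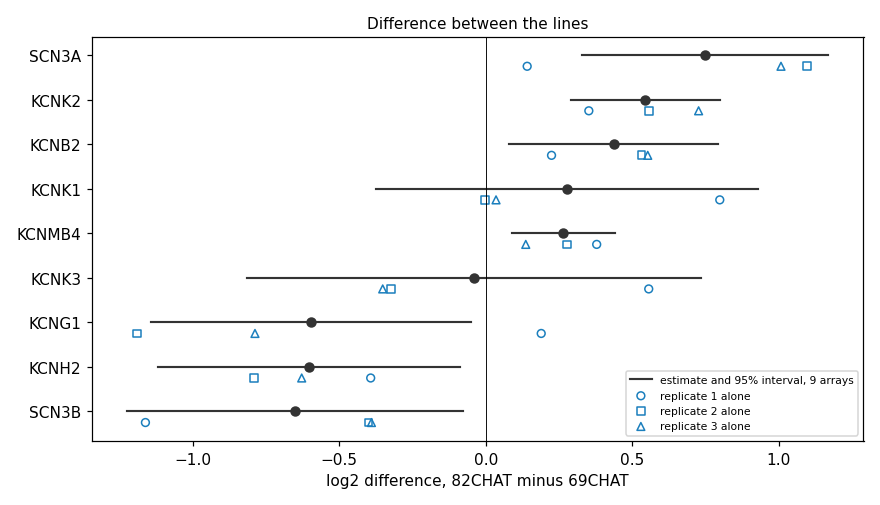
Log2 difference between the lines (82CHAT minus 69CHAT) for 9 channel genes, with the estimate and its 95% interval over 9 arrays (black) and the difference between same-numbered arrays (blue). For KCNK3 and KCNG1 replicate 1 lies on the other side of 0 from replicates 2 and 3, while for KCNK2, KCNB2, SCN3A, KCNMB4, KCNH2 and SCN3B all 3 lie on 1 side.

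The comparison of the lines changed when replicate 1 of every group was left out. With replicates 2 and 3 only, 3 channel genes were higher in 82CHAT and 1 lower, against 1.13% and 1.32% of all genes. SCN3A was higher by log2 1.05 (adjusted p = 0.00284), KCNK2 by 0.64 (adjusted p = 0.0212) and KCNB2 by 0.54 (adjusted p = 0.0156), and KCNG1 had a log2 difference of -0.99 (adjusted p = 0.0126). Within single replicate numbers, SCN3A differed by 0.14, 1.10 and 1.01 and KCNK2 by 0.35, 0.56 and 0.73. KCNG1 differed by 0.19 in replicate 1 and by -1.19 and -0.79 in the others. Without 82CHAT replicate 1 alone, 2 genes were higher, KCNK2 and SCN3A. With the replicate block the counts were 0 and 0. A call made in 1 line's comparison with WT and not in the other's therefore does not show a difference between the lines.

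Partners of the channels were taken from 5 lists. Their counts stand beside 11.7% higher and 17.7% lower over all genes in 69CHAT, and 11.8% and 18.5% in 82CHAT. Of 13 sodium channel partners measured, 2 were higher and 4 lower in 69CHAT and 5 were higher and 4 lower in 82CHAT. FGF13, an intracellular factor that binds sodium channel alpha subunits, read 754.2, 788.4 and 844.2 in WT, 69.6, 81.3 and 87.7 in 69CHAT, and 85.0, 71.7 and 64.2 in 82CHAT. It was 10.04-fold lower in 69CHAT (adjusted p = 4.09e-07) and 10.9-fold lower in 82CHAT (adjusted p = 3.46e-07), while SCN3B was higher in both. NFASC, an adhesion molecule that anchors sodium channels at the axon initial segment, was 2.20-fold and 2.81-fold higher (adjusted p = 0.000112 and 2.29e-05), and NRCAM, its relative, was 1.52-fold and 1.63-fold lower (adjusted p = 0.001 and 0.000445). Of 11 potassium channel partners, 3 were higher and 1 lower in 69CHAT and 1 was higher and 2 lower in 82CHAT. CNTNAP1 and CNTNAP2, which gather potassium channels beside the node of Ranvier, were 2.45-fold (adjusted p = 0.000284) and 2.64-fold (adjusted p = 0.0174) higher in 69CHAT, and DPP6, which joins KCND channels, 1.30-fold (adjusted p = 0.0393). In 82CHAT CNTNAP1 was 1.79-fold higher (adjusted p = 0.00313), and CNTNAP2 and DPP6 had an adjusted p of 0.0597 and 0.114.

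Of 15 calcium channel partners and inhibitors, 8 were higher in 69CHAT and 7 in 82CHAT, with 0 lower in either (limma). SYT1, the calcium sensor of vesicle release, read 59.2, 42.6 and 55.4 in WT, 1201, 1672 and 1572 in 69CHAT, and 885.7, 1520 and 1773 in 82CHAT, a 28.3-fold and 25.8-fold difference (adjusted p = 3.02e-06 and 3.55e-06). It also stands in the neuronal marker list. CRMP1, a cytoskeletal protein of growth cones, was 9.37-fold and 8.98-fold higher (adjusted p = 1.85e-07 and 2.23e-07), and AKAP12, a kinase anchor, 2.06-fold and 1.94-fold (adjusted p = 0.00154 and 0.0025).

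Of 18 ion pumps and exchangers, 4 were higher and 3 lower in 69CHAT (22.2% and 16.7%), and 3 higher and 2 lower in 82CHAT (16.7% and 11.1%). The chloride cotransporters SLC12A2, which brings chloride in, and SLC12A7, which takes it out, were both lower, by 1.65-fold and 1.85-fold in 69CHAT (adjusted p = 0.000405 and 0.00193) and 1.68-fold and 1.90-fold in 82CHAT (adjusted p = 0.000343 and 0.00152). ATP2A2, the calcium pump of the endoplasmic reticulum, was 1.43-fold and 1.35-fold higher (adjusted p = 0.00995 and 0.0226). Of 40 other cation and chloride channel genes, 5 were higher and 3 lower in 69CHAT (12.5% and 7.5%), and 7 higher and 3 lower in 82CHAT (17.5% and 7.5%). The share higher in 69CHAT was near that of all genes (11.7%). The shares lower were under those of all genes (17.7% and 18.5%). ITPR3, an intracellular calcium release channel, was 3.05-fold and 3.59-fold lower (adjusted p = 6.12e-05 and 2.78e-05). The purine-gated channel P2RX5 was 2.23-fold and 1.76-fold higher (adjusted p = 0.0016 and 0.0101), and TPCN1, a channel of endosomes and lysosomes, 1.48-fold and 1.39-fold higher (adjusted p = 0.00191 and 0.00453).

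**Figure D5:**
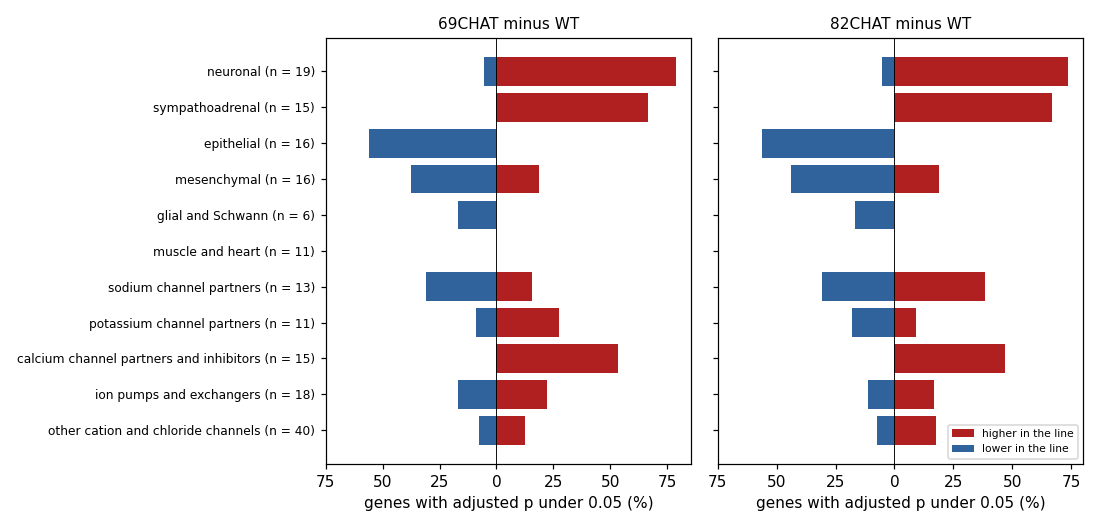
Share of genes, in percent, higher (red, to the right) or lower (blue, to the left) than WT at an adjusted p under 0.05, for 6 marker lists and 5 lists of channel partners, pumps and other channels, with the number of genes measured. The sympathoadrenal bars point right in both lines and the epithelial bars left (9 of 16 genes), the neuronal list has a long bar to the right and a short one to the left (1 of 19 genes), and the calcium channel partner list has no bar to the left.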

How the data were processed

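RNA of 9 samples was measured on single-channel oligonucleotide arrays. The values are linear intensities that the authors computed with RMA and deposited, per the submitters' processing notes. Its version is not given in the sources used here. Groups and replicate numbers came from the sample titles. The table held 22283 probe sets with intensities from 14.9 to 21486. After 68 control probe sets were left out, 22215 were taken to log2 with no pseudocount and no filter and compared in R 4.3.3 with limma 3.58.1 (group means over 9 arrays, eBayes, two-sided, Benjamini-Hochberg over all 22215). A 95% interval is limma's. The number of arrays limits the precision. RMA pulls dim probe sets together, so differences of dim genes may be understated.

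A platform annotation gave 19065 probe sets 1 symbol, 1043 several and 2107 none. 3 further channel probe sets with several symbols were left out. Several probe sets were present for 31 channel genes. At least 1 of them passed for 10 genes in 69CHAT and 11 in 82CHAT, and all of them in the same direction for 8 and 8. Counts by the brightest probe set leave out a gene of which only a dimmer probe set passed. Entrez identifiers of all 99 channel genes matched the RefSeq table and changed no symbol. Genes named were up to 12 of the largest called differences per direction against WT among genes whose groups did not overlap. Also named were the 3 smallest p between the lines, the 10 brightest, the brightest of each class and up to 3 genes of each partner list. Other channel genes given with values lie outside this rule and were picked with their values known. Among them are CACNA2D2, KCNK10, KCNA4, KCNH4, KCNN4 and SCN2B. The channel genes, lists and rules were chosen with earlier results of these data known.

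In all 9 same-numbered pairs of arrays of different groups, deviations from group means over all probe sets correlated at 0.278 to 0.573. Over the 99 channel genes alone they correlated at 0.0183 to 0.531. Pairs with different numbers were not compared in this way, and replicate 1 stood apart in every group. These values therefore cannot show whether the replicate numbers in the titles pair arrays.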

Additional observations from a re-analysis of the deposited data

How the results depend on the processing

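The calls of SCN3B, KCNG1, KCNH2, KCNK3, KCNK2, KCNB2, KCNJ8 and KCNK1 against WT kept their direction and stayed past the threshold in both lines under all 20 alternatives tabulated for each. Over the named genes called in 69CHAT, 270 of the alternative values kept their call and 45 lost it, and in 82CHAT 311 kept it and 20 lost it.

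For 69CHAT against WT, the 16 genes higher became 10 when only the brighter probe sets were tested (24 channel genes remained), 27 with the replicate block, 31 with array weights, 5 at a minimum of 2-fold and 9 to 22 with 1 array left out. The 2 lower became 1 with a pseudocount of 16, 4 with the replicate block, 5 with array weights, 1 at 2-fold and 1 to 3 with 1 array left out. For 82CHAT against WT, the 18 higher became 10 in the brighter probe sets, 30 with array weights, 7 at 2-fold and 12 to 20 with 1 array left out; the 2 lower became 1 in the brighter probe sets, 4 in replicates 2 and 3, 1 at 2-fold and 1 to 3 with 1 array left out. Between the lines, the 0 higher became 4 with array weights, 3 in replicates 2 and 3 and 0 to 2 with 1 array left out, and the 0 lower became 4 with array weights and 1 in replicates 2 and 3. The brighter probe sets and the 2-fold rule leave fewer genes that can be called. The cause of the other changes was not tested. With the block the shares over all genes rose too, from 11.7% to 17.4% higher and from 17.7% to 22.9% lower in 69CHAT. Shares over all genes are not given for the brighter probe sets, the array weights and the left-out arrays. Those counts therefore cannot be set against a general change.

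These weights were estimated gene by gene and chosen after seeing the data. The planned default weights stopped before converging, with values from 0.092 to 61. Read all the same, they gave 38 higher and 6 lower, 51 and 5, and 47 and 34 in the 3 comparisons, with 75.2% of all genes called between the lines, and were not used.

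Among the genes of the naming rule followed through the alternatives, directions turned only in differences not past the threshold. KCNA5, KCNG2, KCNJ6, KCNMB1 and KCNIP2 were not among these genes. KCNK3 between the lines went from -0.04 to 0.12 without 69CHAT replicate 1 and to 0.19 without 82CHAT replicate 2 or 3 (range -0.50 to 0.19 with 1 array left out). KCNK1 between the lines went from 0.28 to -0.11 without 82CHAT replicate 1 (range -0.11 to 0.51). HCN2 in 82CHAT went from -0.15 to 0.10 with array weights and 0.13 in replicates 2 and 3. SCN10A in 69CHAT went from 0.23 to -0.017 without 69CHAT replicate 1 (range -0.017 to 0.42). Other scaling moved the median of all probe sets by less than 0.1 on the log2 scale. Dim probe sets limit what can be seen: 16 of 99 genes lay under the lower quartile on all 9 arrays.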
